A study of Cucumis melo with 18 samples.

Results

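The fruit flesh of the melon inbred line “B-6” was compared between 10 and 45 days after pollination (DAP), as the 3 libraries of “4_6” (45 DAP) against the 3 of “1_6” (10 DAP). These 6 libraries were taken by their labels from the 18 of the series, and the 3 libraries of the same line at 30 DAP, “3_6”, were read only to place each change before or after that day. “B-6” fruits pass from green to white as they develop, whereas those of the other inbred line, “B-14”, pass from green to orange, and the 3 libraries each of “1_14” (10 DAP) and “4_14” (45 DAP) served for comparison. No treatment, transgene or mutant allele is named for any group, so that the groups differ in line and age alone as far as the labels say. The fruits were grown in a greenhouse and taken from different plants, and 1 line stands for each colour. The study describes the tissue as flesh while the labels name it blade, and no identifier could be tied to a marker of another tissue, so the tissue was not checked against defining markers.

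Young melon fruits grow by dividing and then expanding cells, their flesh is green with chlorophyll-bearing plastids, and the mature fruit stops growing, stores sugar and lets its chloroplasts change or vanish. Chlorophyll and heme share a tetrapyrrole pathway that starts from glutamate bound to its transfer RNA and branches where a magnesium or an iron ion enters the ring. Carotenoids are made in plastids from geranylgeranyl pyrophosphate by way of phytoene and lycopene, and their cleavage gives abscisic acid, strigolactones and volatiles. RNA levels report neither enzyme activity nor pigment, and in a bulk sample fewer cells of a type cannot be told apart from less RNA per cell.

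Total counts per library of “B-6” lay between 20651703 and 22675606. Genes with more than 3 counts numbered 17348 to 17439 in “1_6”, 16381 to 16399 in “3_6” and 16141 to 16293 in “4_6”, and the 10 most abundant genes took 4.01% ± 0.020 (SD, n = 3) of the counts in “1_6” and 5.24% ± 0.17 in “4_6” (exact two-sided permutation test p = 0.1 for both, the smallest p that 3 against 3 libraries allow). Levels are given as CPM, the counts of a library brought to a common total with TMM factors, which were 0.850 to 0.992 in “1_6” and 0.984 to 1.02 in “4_6”. The first library of “4_6” stood apart from its replicates: of 14244 genes with a group mean of at least 1 CPM, 137 lay more than 2-fold above and 413 more than 2-fold below both of them (3.86% in all), against 0.871% and 1.88% in the others, and the first library of “1_6” had the highest such share of its group, 2.04%. Where leaving out a library ended a gene's call or moved a printed log2 fold change of “4_6” versus “1_6” by more than 1.5-fold, the value without it stands beside it. A gene was called differentially expressed (DEG) where edgeR's quasi-likelihood F test gave an adjusted p (Benjamini-Hochberg) up to 0.05 and the level differed by 2-fold or more, and log2 fold changes are given ± SE with 3 libraries in each group.

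In “4_6” versus “1_6”, 7901 of 16547 genes tested were DEGs (47.7%), of which 3237 were upregulated (19.6%) and 4664 downregulated (28.2%). The larger changes were mostly decreases. More than 4-fold changes were found in 1313 upregulated and 3205 downregulated genes, and more than 16-fold changes in 381 and 1676. Among the DEGs, 729 fell from a measured level at 10 DAP to the floor of 3 counts or fewer in every “4_6” library, and 435 of these were already there in “3_6”. Only 163 went the other way, from the floor at 10 DAP, and 30 of these were still at the floor at 30 DAP. The libraries of both groups did not overlap in 12616 genes (76.2%).

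By 30 DAP the median gene that fell had gone further along its change than the median gene that rose, with a wide spread in both. The quartiles of the share reached were 45.9 and 102.6% for downregulated genes and 32.8 and 94.8% for upregulated ones. A share under 25% was found in 14.5% of the downregulated and 20.8% of the upregulated genes. On the log2 scale “3_6” had covered a median of 77.5% of the way from “1_6” to “4_6” in the downregulated genes (73.4, 78.0 and 76.9% by single 30 DAP libraries) and 65.1% in the upregulated ones (62.7, 67.1 and 67.0%). Without the first “4_6” library these medians were 78.5 and 63.2%. These shares describe the course and carry no test, since “3_6” was compared with the libraries that chose the genes. At 30 DAP, 7020 of 16478 genes tested were DEGs against “1_6” (42.6%), and from 30 to 45 DAP 4224 of 15517 were DEGs (27.2%). Of 15092 genes tested in all 3 comparisons, 415 had no net call but were called up and then down, and 320 down and then up.

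**Figure D1:**
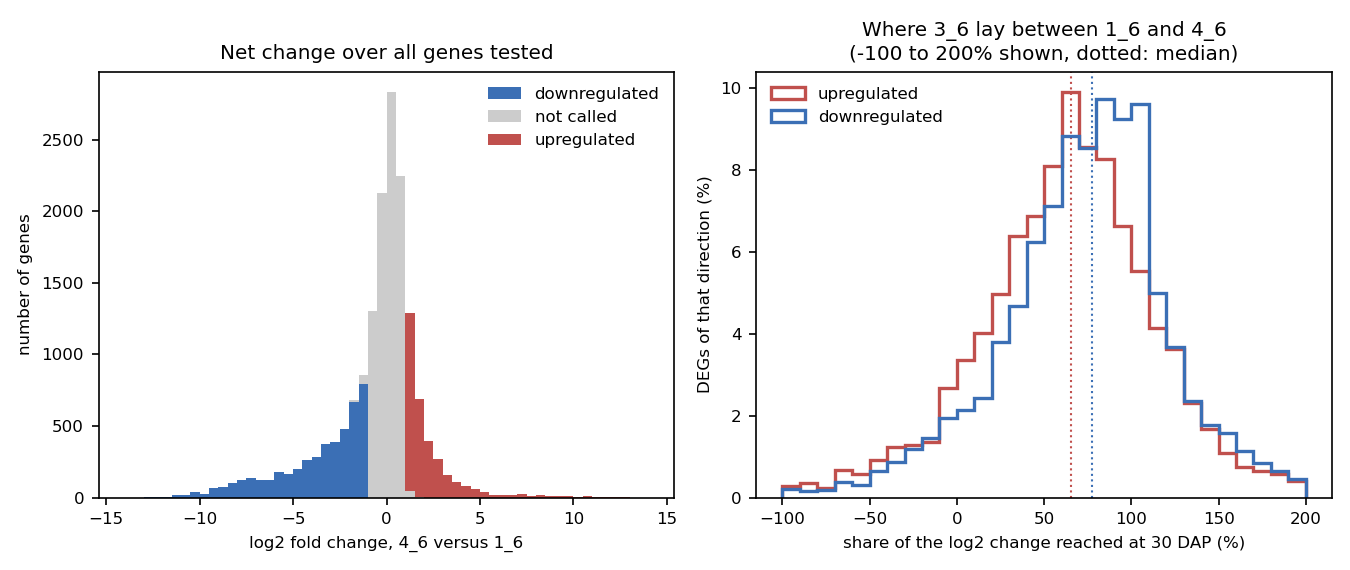
Left, number of genes by log2 fold change in “4_6” versus “1_6” in bins of 0.5, with DEGs coloured by direction. The downregulated side reaches further out, with 1676 genes past 16-fold against 381 upregulated. Right, percent of the DEGs of each direction by the share of their log2 change that 3 libraries of “3_6” had reached, with dotted medians at 65.1% for upregulated and 77.5% for downregulated genes.

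The 4 genes chosen by the smallest p-value among those whose libraries did not overlap, 2 in each direction, have no annotation in the sources used and are given by identifier. MELO3C030339.2 was at 0.048, 0 and 0 CPM in “1_6”, at most 1 count. It was at 0.575, 3.24 and 0.718 CPM in “3_6” and 179, 177 and 155 CPM in “4_6”. In CPM nearly all of its rise lay after 30 DAP, though every “3_6” library was already above every “1_6” library. MELO3C018819.2 was at 6.13, 6.15 and 6.27 CPM at 10 DAP, 83.0, 98.4 and 81.7 CPM at 30 DAP and 199, 178 and 181 CPM at 45 DAP. Of the downregulated pair, MELO3C030711.2 went from 57.1, 51.7 and 60.0 CPM to 4.41, 4.95 and 3.90 CPM and then to 0.186, 0.313 and 0.259 CPM. The other, MELO3C016357.2, left 43.2, 36.6 and 40.8 CPM at 10 DAP and was at or below 0.180 CPM in each of the 6 later libraries. The 4 genes therefore show 4 courses, a rise from near zero that is mostly late in CPM, a rise in both intervals, a fall in both intervals and an early loss.

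Genes of growth, wall and storage were read from a list of 30 that the study ranked highest for stage differences in “B-14”, which was chosen without the “B-6” libraries but in the same series. In “4_6” versus “1_6”, 8 of the 30 were upregulated and 21 downregulated, beside 19.6% and 28.2% of all genes, and 19 of the downregulated genes had already fallen at 30 DAP (25.1% of all genes fell in that interval). Because the list holds the most changed genes of the other line, its high share of DEGs describes how far the lines share a course and is no test of a pathway.

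Wall and growth genes were among the sharpest losses. XTH22 (MELO3C017480.2), a xyloglucan endotransglucosylase/hydrolase that cuts and rejoins wall xyloglucan, was at 789.9, 1470.3 and 1502 CPM in “1_6”, 469.6, 343 and 459 CPM in “3_6” and 19.6, 28.1 and 13.8 CPM in “4_6” (log2 fold change -5.96 ± 0.41, adjusted p = 8.33e-06). Every later library lay below every 10 DAP library, and the fall continued after 30 DAP. The related enzyme MELO3C026755.2 was at 754, 586 and 704 CPM in “1_6”, 3.07, 1.62 and 2.11 CPM in “3_6” and 0.886, 4.66 and 2.47 CPM in “4_6”, a loss that was complete at 30 DAP (log2 fold change -8.02 ± 0.58, adjusted p = 1.13e-05; without the second “4_6” library the log2 fold change was -8.67). Germin-like protein 5-1 (MELO3C004143.2) fell from 176 ± 5.79 CPM to 4.79 ± 1.89 CPM (mean ± SD), and ABCB11 (MELO3C008741.2), an ABC transporter of the B family, from 202 ± 22.6 CPM to 3.76 ± 1.25 CPM. In the other direction stood protein PIN-LIKES 6 (MELO3C025264.2), of a family of auxin carriers of the endoplasmic reticulum, at 126, 159.6 and 121 CPM in “1_6”, 4747, 4379.6 and 4789.9 CPM in “3_6” and 6756, 5224 and 3831 CPM in “4_6” (log2 fold change 5.25 ± 0.34, adjusted p = 6.50e-06). Its later libraries lay far above those of 10 DAP, and those of 30 and 45 DAP overlapped.

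Sucrose synthase (MELO3C015552.2), which splits sucrose for growing sink tissue, was at 1202, 2309 and 2101 CPM in “1_6”, 116, 105 and 94.6 CPM in “3_6” and 348, 219 and 179.9 CPM in “4_6” (log2 fold change -2.94 ± 0.36, adjusted p = 0.00016). It was lowest at 30 DAP and came back in part, with no overlap between the 3 stages. RBOHB (MELO3C015312.2), an NADPH oxidase that makes superoxide at the plasma membrane, went from 102, 246 and 277 CPM to 1.96, 1.97 and 1.77 CPM, and equilibrative nucleotide transporter 3 (MELO3C007334.2) from 336, 394 and 399 CPM to 0.419, 1.79 and 2.12 CPM. Both losses were in place at 30 DAP. A 21 kDa protein (MELO3C006821.2) fell from 2605 ± 262 CPM to 100.5 ± 47.1 CPM.

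Several further genes of this list fell hard by 30 DAP and then differed among the 45 DAP libraries. Calmodulin-3 (MELO3C026342.2), a calcium sensor, was at 1189.8, 1063 and 1251 CPM in “1_6”, 21.3, 13.7 and 15.9 CPM in “3_6” and 6.29, 124 and 102 CPM in “4_6” (log2 fold change -3.94 ± 0.90, adjusted p = 0.00459; -3.40 without the first “4_6” library). Umecyanin (MELO3C004455.2), a blue copper protein, was at 1171, 1486 and 1813 CPM in “1_6”, 2.83, 2.29 and 1.35 CPM in “3_6” and 1.305, 37.3 and 54.97 CPM in “4_6” (log2 fold change -5.60 ± 1.10, adjusted p = 0.00218; -5.04 without the first and -6.30 without the third “4_6” library). Ribonuclease 1 (MELO3C012099.2) was at 121, 104 and 100.03 CPM in “1_6”, 3.59, 6.24 and 7.76 CPM in “3_6” and 5.17, 26.2 and 43.6 CPM in “4_6” (log2 fold change -2.14 ± 0.61, adjusted p = 0.0134; -1.67 without the first and -2.82 without the third “4_6” library). In all 3 genes the first “4_6” library was the lowest of its group, and the others lay above every 30 DAP library. That first library lay within the 30 DAP range for ribonuclease 1, just below it for umecyanin and further below it for calmodulin-3. All 45 DAP libraries were below all 10 DAP libraries. The vacuolar cation/proton exchanger CAX3 (MELO3C003294.2), which loads calcium into the vacuole, was at 702, 680.4 and 715 CPM in “1_6”, 2772, 2950.5 and 3457 CPM in “3_6” and 1343, 288 and 202 CPM in “4_6”, its first “4_6” library again being the nearest to 30 DAP. Its net change was not called (log2 fold change -0.23 ± 0.63, adjusted p = 0.762), but without the first “4_6” library it was at -1.54 with an adjusted p of 0.000456, and every 30 DAP library was above every other.

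The genes of this list that rose included both lipid and metal genes. An acyl-[acyl-carrier-protein] desaturase (MELO3C010739.2), of the enzymes that set a double bond into plastid fatty acids, was at 187, 197 and 231 CPM in “1_6”, 1724, 1795 and 1849 CPM in “3_6” and 8483, 6143 and 5927 CPM in “4_6” (log2 fold change 5.03 ± 0.31, adjusted p = 5.48e-06). Another member of that class, stearoyl-[acyl-carrier-protein] 9-desaturase 6 (MELO3C008413.2), went the other way, at 897, 1537 and 1295 CPM in “1_6”, 32.3, 20.1 and 20.6 CPM in “3_6” and 9.83, 39.1 and 18.6 CPM in “4_6” (log2 fold change -5.82 ± 0.56, adjusted p = 4.53e-05; -6.46 without the second “4_6” library). The same enzyme class held a gene that rose in each interval and one that was lost before 30 DAP. Long-chain-alcohol oxidase FAO1 (MELO3C006405.2) was at 4.83, 3.33 and 2.34 CPM in “1_6” and 290.4, 137 and 216 CPM in “4_6”. A metallothionein-like protein type 3 (MELO3C016513.2), of small proteins that bind metal ions, was at 5.07, 9.79 and 6.96 CPM in “1_6”, 472, 528 and 419.99 CPM in “3_6” and 676, 479 and 499 CPM in “4_6” (log2 fold change 6.21 ± 0.32, adjusted p = 2.54e-06). It rose before 30 DAP, and VSR6 (MELO3C007003.2), a vacuolar-sorting receptor, rose in both intervals, from 4.25 ± 0.968 CPM over 19.3 ± 3.24 CPM to 96.98 ± 16.9 CPM.

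Porphyrin and chlorophyll genes rose more often than they fell. Of 42 genes on the study's list, which was chosen at least in part on these samples, 41 were tested, 15 were upregulated and 5 downregulated in “4_6” versus “1_6” (36.6% and 12.2%, beside 19.6% and 28.2% of all genes), and 21 did not pass. The median log2 fold change of the 41 was 0.44, beside 0.02 over all genes tested. Upregulated genes sat mainly in the chlorophyll branch (8 of 13) and in chlorophyll breakdown (5 of 8 tested), whereas the early steps held 2 up and 3 down of 13, and heme and bilin genes 0 up and 1 down of 7.

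Among the early steps 3 genes fell and 2 rose. Of the listed glutamate-tRNA ligase genes, as of the glutamyl-tRNA reductase genes, a gene fell while the other was not called. Which ligase gene serves tetrapyrrole synthesis was not tested, so a fall in either is not read as a fall of the entry step. Glutamate-tRNA ligase MELO3C015227.2, which the study lists as At5g26710, was at 517, 979 and 912 CPM in “1_6”, 72.3, 76.6 and 82.1 CPM in “3_6” and 110.1, 108 and 108 CPM in “4_6” (log2 fold change -2.91 ± 0.26, adjusted p = 3.36e-05), all of its fall lying before 30 DAP. The other ligase gene, OVA3 (MELO3C015693.2), was at 37.1, 41 and 40.9 CPM in “1_6”, 50.5, 52 and 53.4 CPM in “3_6” and 74.8, 64.3 and 64.8 CPM in “4_6” (log2 fold change 0.75 ± 0.12, adjusted p = 0.000706), so that it was higher in every 45 DAP library than at 10 DAP but by less than 2-fold. HEMA2 (MELO3C018565.2), a glutamyl-tRNA reductase of the first committed step, was at 270.3, 364 and 464 CPM in “1_6”, 67.2, 37.5 and 50.8 CPM in “3_6” and 7.36, 6.62 and 20.5 CPM in “4_6” (log2 fold change -5.01 ± 0.51, adjusted p = 5.83e-05; -5.74 without the third “4_6” library). It fell in both intervals. The reductase gene HEMA1 (MELO3C011113.2) was at 92.3, 99.1 and 78.5 CPM in “1_6”, 114, 95.9 and 117 CPM in “3_6” and 143, 125 and 107 CPM in “4_6” (log2 fold change 0.44 ± 0.15, adjusted p = 0.0327), again above 10 DAP in every 45 DAP library and under 2-fold. CPX (MELO3C016226.2), coproporphyrinogen-III oxidase, fell to its lowest level at 30 DAP, from 369 ± 106 CPM over 80.9 ± 2.86 CPM to 124 ± 17.9 CPM. Against them HEMC (MELO3C024010.2), the porphobilinogen deaminase that links pyrrole units in a chain, was at 28.05, 22.4 and 20.5 CPM in “1_6”, 28.8, 28.2 and 29.3 CPM in “3_6” and 88.4, 111 and 79.1 CPM in “4_6” (log2 fold change 1.94 ± 0.18, adjusted p = 3.89e-05). HEMC was not called at 30 DAP against “1_6” and rose afterwards, with all 45 DAP libraries above all others. POX1 (MELO3C005189.2), protoporphyrinogen oxidase, rose by 1.25 ± 0.16 on the log2 scale.

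In the chlorophyll branch 8 of 13 genes rose, 1 fell and 4 were not called, and the rises came at different times. Among the uncalled, DVR (MELO3C006606.2) and CHLG (MELO3C026000.2) had log2 fold changes of 0.080 to 0.42 and -0.39 to -0.096 on leaving out each library. Magnesium chelatase changed unevenly. Its porphyrin-binding subunit CHLH (MELO3C023131.2) was at 39.1, 26.5 and 22.3 CPM in “1_6”, 356, 289.8 and 344 CPM in “3_6” and 826, 628 and 666 CPM in “4_6” (log2 fold change 4.56 ± 0.28, adjusted p = 5.27e-06), rising in both intervals. Subunit CHLI (MELO3C007233.2), an ATPase, was at 78.1, 64.7 and 46.3 CPM in “1_6”, 93.7, 100.1 and 109 CPM in “3_6” and 295, 217 and 162 CPM in “4_6” (log2 fold change 1.80 ± 0.27, adjusted p = 0.000502) and was called only after 30 DAP. Subunit CHLD (MELO3C014571.2), the third part of the enzyme, was at 28.1, 32.1 and 24.7 CPM in “1_6”, 40.7, 40.7 and 39.04 CPM in “3_6” and 40.5, 37.7 and 19.3 CPM in “4_6” (log2 fold change 0.16 ± 0.26, adjusted p = 0.595) and did not pass, with overlapping libraries. A second gene for the H subunit, CHLH1 (MELO3C002961.2), was present only in young flesh, at 1.93, 0.886 and 0.744 CPM in “1_6” and 0 in all 6 later libraries, and was at least 8.82-fold lower at 45 DAP taking 3 counts in each library as the floor.

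Further down the branch CRD1 (MELO3C026802.2), the oxidative cyclase that closes the fifth ring, was at 169.97, 151 and 126 CPM in “1_6”, 477, 433 and 488 CPM in “3_6” and 1244, 791 and 695 CPM in “4_6” (log2 fold change 2.58 ± 0.27, adjusted p = 7.06e-05). The protochlorophyllide reductase genes named PORA, which carry out the light-driven step, differed in course. PORA MELO3C016714.2 rose, with 306 ± 91.5 CPM, 639.99 ± 36.5 CPM and 1085 ± 236 CPM at the 3 stages. PORA MELO3C013592.2 was at 6.47, 5.99 and 8.61 CPM in “1_6”, 1.73, 2.62 and 2.51 CPM in “3_6” and 17.9, 15.04 and 16.3 CPM in “4_6” (log2 fold change 1.20 ± 0.19, adjusted p = 0.000638), so that it fell to 30 DAP and then rose past its starting level, with no overlap between stages. CAO (MELO3C010614.2), which makes chlorophyll b, rose by 2.40 ± 0.22, and CHLP (MELO3C017176.2), the reductase that supplies the phytyl tail, was at 64.5, 58.03 and 30.6 CPM in “1_6”, 135, 131 and 144 CPM in “3_6” and 303, 282 and 189 CPM in “4_6” (log2 fold change 2.30 ± 0.31, adjusted p = 0.000275). A second CHLP gene (MELO3C014712.2), much nearer the floor, rose by 1.89 ± 0.41 and only after 30 DAP. CHLM (MELO3C026160.2), a methyltransferase, fell to its lowest level at 30 DAP, from 78.4 ± 12.04 CPM over 28.2 ± 2.11 CPM to 46.5 ± 11.2 CPM, and its net change was under 2-fold.

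**Figure D2:**
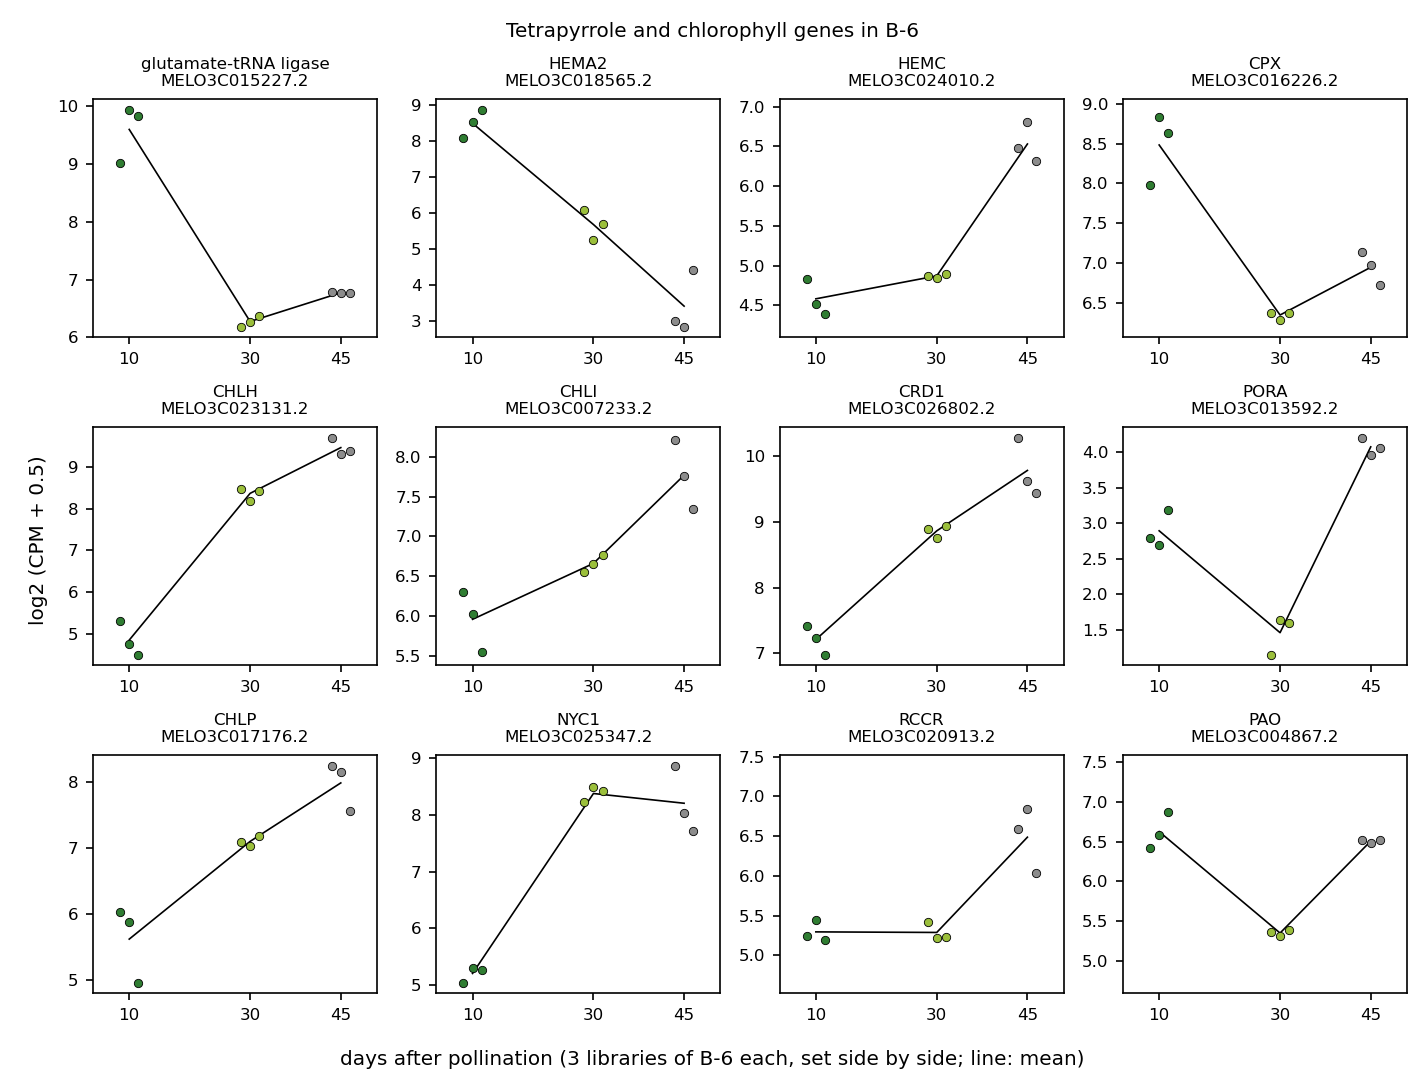
Level of 12 tetrapyrrole and chlorophyll genes, as log2 (CPM + 0.5), against days after pollination, with a point for each of the 3 “B-6” libraries of a stage and a line through their means. CHLH, CHLI, CRD1, CHLP and NYC1 rise from 10 to 45 DAP, and glutamate-tRNA ligase MELO3C015227.2 and HEMA2 fall. HEMC and RCCR MELO3C020913.2 rise only after 30 DAP, and PORA MELO3C013592.2 and PAO MELO3C004867.2 have their lowest level at 30 DAP.

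Of the breakdown genes 5 rose and 0 fell. NYC1 (MELO3C025347.2), a chlorophyll b reductase that begins the breakdown of chlorophyll b, was at 32.4, 38.8 and 37.9 CPM in “1_6”, 298, 359 and 342 CPM in “3_6” and 467, 262 and 209 CPM in “4_6” (log2 fold change 3.07 ± 0.30, adjusted p = 5.26e-05) and had risen in full by 30 DAP. NOL (MELO3C019918.2), its partner, rose by 1.24 ± 0.18, HCAR (MELO3C006358.2), the next reductase, by 2.22 ± 0.30, and chlorophyllase-2 CLH2 (MELO3C014286.2) by 1.21 ± 0.18 on the log2 scale. PAO (MELO3C004867.2), pheophorbide a oxygenase, which opens the ring, was at 84.96, 95.5 and 117 CPM in “1_6”, 40.5, 39.1 and 41.2 CPM in “3_6” and 91.3, 88.6 and 91.2 CPM in “4_6” (log2 fold change -0.16 ± 0.14, adjusted p = 0.337). Its 30 DAP libraries lay below all others, and those of 10 and 45 DAP overlapped. RCCR (MELO3C020913.2), red chlorophyll catabolite reductase, which acts on the product of PAO, was at 37.3, 43.2 and 36.2 CPM in “1_6”, 42.3, 36.8 and 36.9 CPM in “3_6” and 95.4, 114 and 64.8 CPM in “4_6” (log2 fold change 1.20 ± 0.21, adjusted p = 0.00101), with its whole rise after 30 DAP. Another RCCR gene (MELO3C020912.2) and another PAO gene (MELO3C035546.2) were not called. On leaving out each library their log2 fold changes were 0.21 to 0.42 and 0.14 to 0.65. The single DEG among heme and bilin genes was HEMH (MELO3C010762.2), a ferrochelatase that inserts iron, at 154 ± 35.5 CPM in “1_6” and 60.7 ± 2.46 CPM in “4_6”.

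Carotenoid genes split by their place in the pathway. Of 25 genes, all tested and again listed by the study with these samples in view, 11 were upregulated and 7 downregulated (44% and 28%, beside 19.6% and 28.2% of all genes, the downregulated share being that of genes at large), 12 and 6 were called up and down at 30 DAP against “1_6” (17.5% and 25.1% of all genes), and 3 and 5 from 30 to 45 DAP (12.1% and 15.1%). The median log2 fold change was 0.72. The study counts more carotenoid genes than these 25. CHYB, for which its text gives no identifier, is not among the 25. From geranylgeranyl pyrophosphate to lycopene 7 of 10 rose and 0 fell, whereas among the 9 genes of cleavage, abscisic acid and strigolactone 2 rose and 5 fell.

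On the way to lycopene GGPS (MELO3C020952.2), which makes the common precursor, rose from 55.9 ± 5.08 CPM over 118 ± 5.68 CPM to 224 ± 31 CPM. Phytoene synthase catalyses the first committed step, and its gene PSY (MELO3C025102.2) was at 30.4, 35.7 and 39.2 CPM in “1_6”, 161, 155 and 144 CPM in “3_6” and 239.8, 187 and 153 CPM in “4_6” (log2 fold change 2.43 ± 0.20, adjusted p = 1.91e-05). Nearly all of its rise was present at 30 DAP. The other PSY gene (MELO3C016185.2) was at 3.28, 1.56 and 1.49 CPM in “1_6”, 6.71, 5.14 and 4.85 CPM in “3_6” and 4.89, 5.19 and 4.02 CPM in “4_6” (log2 fold change 1.11 ± 0.35, adjusted p = 0.02), a call that was lost on leaving out the second or the third “1_6” library or the second “4_6” library, with log2 fold changes of 0.93, 0.91 and 1.05. The desaturases PDS (MELO3C017772.2) and ZDS (MELO3C024674.2) rose by 1.77 ± 0.18 and 1.95 ± 0.16, the isomerases Z-ISO (MELO3C017709.2) and CRTISO (MELO3C016495.2) by 1.40 ± 0.14 and 1.39 ± 0.22. The other CRTISO genes, MELO3C009571.2 and MELO3C016373.2, were not called. Their log2 fold changes were 0.65 to 0.77 and 0.43 to 0.68 on leaving out each library. A second PDS gene (MELO3C020832.2) peaked at 30 DAP, at 8.69, 8.91 and 7.28 CPM in “1_6”, 20.2, 15.6 and 19.3 CPM in “3_6” and 6.38, 7.03 and 4.54 CPM in “4_6”, and had no net call.

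After lycopene, among the cyclases and xanthophyll enzymes, 2 of 6 genes rose and 2 fell. Lycopene beta cyclase LCY1 (MELO3C020744.2) rose by 1.32 ± 0.12, and CYP97C1 (MELO3C024495.2), which hydroxylates the epsilon ring in lutein synthesis, by 1.76 ± 0.27. Lycopene epsilon cyclase LUT2 (MELO3C004633.2) was at 6.08, 6.82 and 4.57 CPM in “1_6”, 1.63, 2.81 and 1.17 CPM in “3_6” and 11.05, 10.9 and 7.57 CPM in “4_6” (log2 fold change 0.72 ± 0.23, adjusted p = 0.0232). It was lowest at 30 DAP and its net rise was under 2-fold. CYP97A3 (MELO3C014945.2), the hydroxylase of the beta ring in lutein synthesis, was at 100.1, 121 and 108 CPM in “1_6”, 38.8, 30.7 and 35.3 CPM in “3_6” and 19.02, 17.2 and 18.3 CPM in “4_6” (log2 fold change -2.62 ± 0.13, adjusted p = 2.21e-06), with no overlap between the stages. The gene annotated as capsanthin/capsorubin synthase CCS (MELO3C017963.2), named for the pepper enzyme, fell from 43.2 ± 9.19 CPM over 4.34 ± 1.004 CPM to 4.49 ± 2.41 CPM.

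Among the cleavage genes CCD4 (MELO3C016224.2), a dioxygenase that cuts carotenoids into volatile and coloured pieces, was at 9.56, 12.5 and 8.29 CPM in “1_6”, 39.3, 39.3 and 42.8 CPM in “3_6” and 357, 100.2 and 121 CPM in “4_6” (log2 fold change 4.22 ± 0.52, adjusted p = 0.000169). The first “4_6” library was the highest, and without it the log2 fold change was 3.42. CYP711A1 (MELO3C016879.2), known as MAX1 in Arabidopsis, where it acts late in strigolactone synthesis, was at 114, 142 and 166 CPM in “1_6”, 1.92, 0.857 and 1.08 CPM in “3_6” and 0.652, 0.761 and 0.908 CPM in “4_6” (log2 fold change -7.52 ± 0.23, adjusted p = 8.57e-07). Its loss was complete by 30 DAP.

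The genes of abscisic acid went in different directions, also within the NCED step. NCED enzymes cleave 9-cis epoxycarotenoids in the first step given to abscisic acid alone, and NCED2 MELO3C007127.2 was at 4.34, 4.58 and 6.01 CPM in “1_6”, 15.8, 22.05 and 23.2 CPM in “3_6” and 105, 63.2 and 60.9 CPM in “4_6” (log2 fold change 3.91 ± 0.26, adjusted p = 8.01e-06), a rise in both intervals. NCED2 MELO3C002744.2 was at 4.01, 2.605 and 4.09 CPM in “1_6” and at or below 0.233 CPM in every later library (log2 fold change -4.70 ± 0.48, adjusted p = 6.29e-05). NCED6 (MELO3C023086.2) peaked at 30 DAP, at 14.3, 13.4 and 17.1 CPM in “1_6”, 84.1, 91.4 and 101 CPM in “3_6” and 34.5, 30.9 and 21.02 CPM in “4_6” (log2 fold change 0.92 ± 0.20, adjusted p = 0.00398). It had risen at 30 DAP and fallen again by 45 DAP, and its net rise stayed under 2-fold with all libraries but reached 1.02 without the third “1_6” library and 1.10 without the third “4_6” library. Downstream, ABA2 (MELO3C005129.2), xanthoxin dehydrogenase, was at 39.7, 42.7 and 39.7 CPM in “1_6”, 38.2, 38.95 and 34.7 CPM in “3_6” and 6.199, 5.68 and 3.55 CPM in “4_6” (log2 fold change -3.02 ± 0.21, adjusted p = 9.10e-06), and AAO3 (MELO3C014716.2), abscisic-aldehyde oxidase, was at 48.8, 56.3 and 48.3 CPM in “1_6”, 35.03, 27.4 and 33.9 CPM in “3_6” and 11.2, 9.62 and 9.56 CPM in “4_6” (log2 fold change -2.37 ± 0.14, adjusted p = 3.95e-06). Both fell mainly after 30 DAP. AAO2 (MELO3C014719.2), annotated as an indole-3-acetaldehyde oxidase, peaked at 30 DAP with 59.2 ± 3.71 CPM, against 14.01 ± 3.41 CPM before and 18.6 ± 6.62 CPM after. CYP707A2 (MELO3C016219.2), the hydroxylase that inactivates abscisic acid, was at 141, 387 and 476 CPM in “1_6”, 76.3, 37.1 and 47.8 CPM in “3_6” and 40.7, 30.5 and 58.3 CPM in “4_6” (log2 fold change -2.98 ± 0.46, adjusted p = 0.000579), with the first “1_6” library lowest of its group and still above all later ones.

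**Figure D3:**
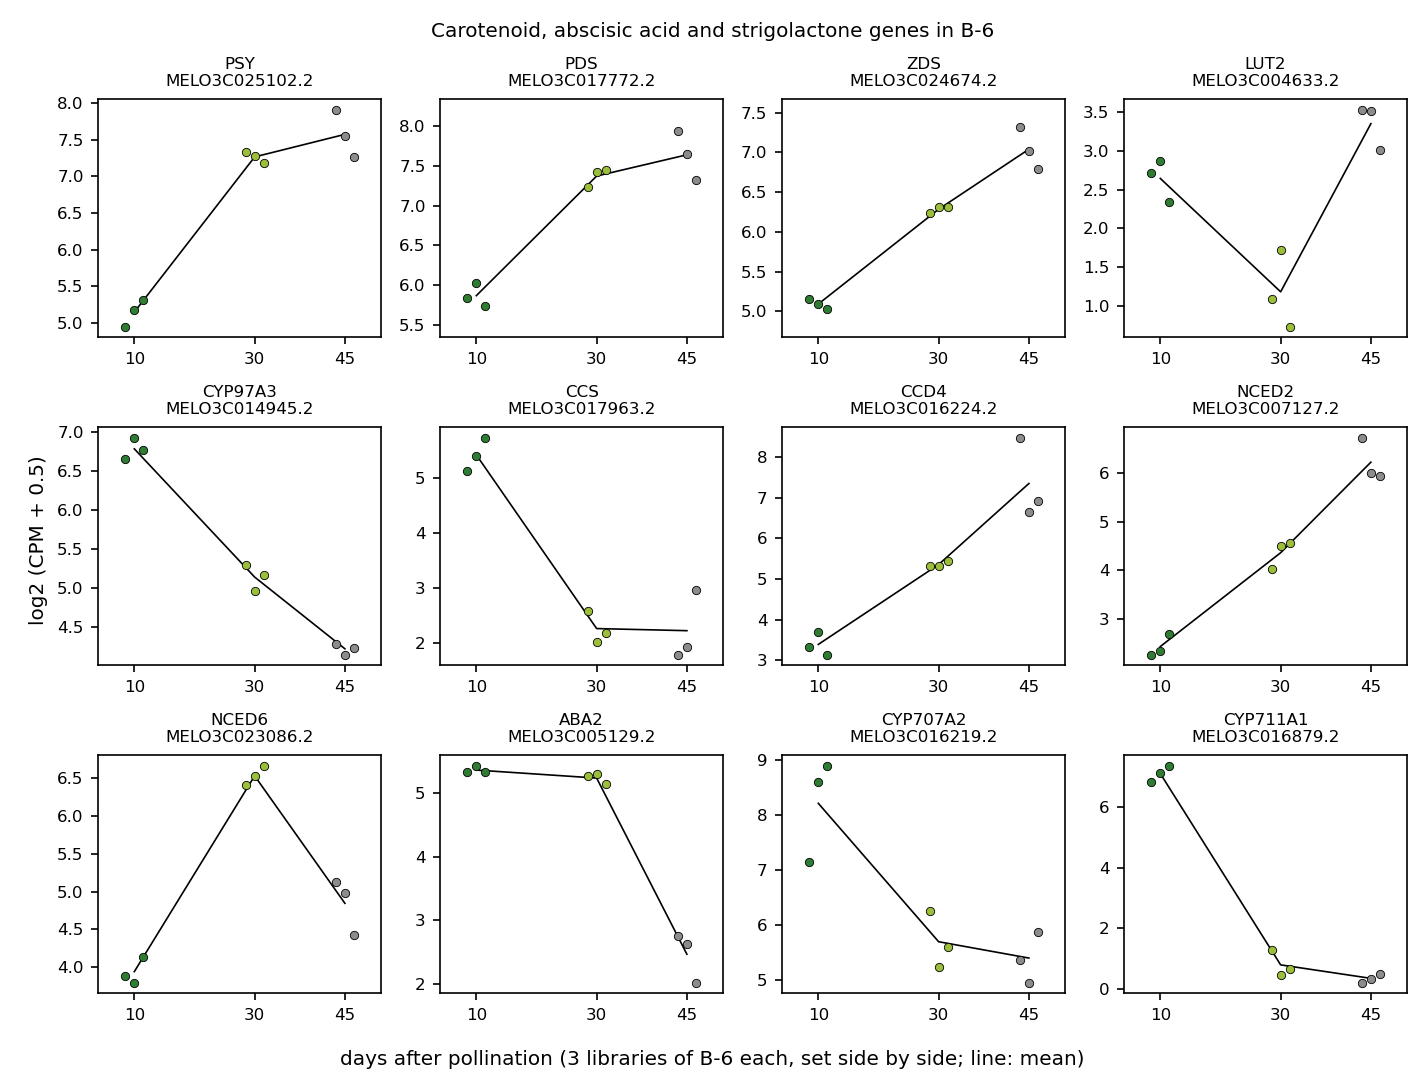
Level of 12 carotenoid, abscisic acid and strigolactone genes, as log2 (CPM + 0.5), against days after pollination, with a point for each of the 3 “B-6” libraries of a stage and a line through their means. PSY, PDS and ZDS rise mostly by 30 DAP, CYP97A3, CCS, CYP707A2 and CYP711A1 fall, ABA2 falls only after 30 DAP, and NCED6 peaks at 30 DAP.

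The listed transcription factor genes fell more often than they rose. Of 40 factor genes on the study's list, 32 passed the filter on low counts and 8 did not, and of the 32 there were 8 upregulated and 20 downregulated in “4_6” versus “1_6” (25% and 62.5%, beside 19.6% and 28.2% of all genes). Their median log2 fold change was -3.24. The study listed them mostly for being higher in “4_14” than in “4_6”, which shares the 45 DAP libraries used here, so that the direction of the counts is no independent result. At 30 DAP against “1_6” 8 of 32 tested were up and 14 down, beside 17.5% and 25.1% of all genes, and from 30 to 45 DAP 5 and 17 of 31 tested, beside 12.1% and 15.1%.

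Some factors were lost early. ERF061 (MELO3C005747.2), of the ethylene-responsive factors, was at 292, 335 and 429.5 CPM in “1_6”, 0.767, 0.619 and 0.673 CPM in “3_6” and 0.047, 0.179 and 0.432 CPM in “4_6” (log2 fold change -10.61 ± 0.47, adjusted p = 1.60e-06; -11.55 without the third “4_6” library). The heat shock factor HSF24 (MELO3C007560.2) was at 331, 532 and 636 CPM in “1_6”, 12.7, 7.43 and 8.57 CPM in “3_6” and 5.31, 4.83 and 5.795 CPM in “4_6” (log2 fold change -6.58 ± 0.31, adjusted p = 1.87e-06). Both had nearly their whole fall before 30 DAP, as had ERF106 (MELO3C005466.2), from 261 ± 68.6 CPM to 4.49 ± 0.845 CPM, and NAC55 (MELO3C016536.2), from 356 ± 41.1 CPM to 66.8 ± 9.95 CPM. bHLH35 (MELO3C017424.2) fell in both intervals, at 145, 157 and 224 CPM in “1_6”, 27.1, 11.9 and 15.3 CPM in “3_6” and 2.703, 3.76 and 6.401 CPM in “4_6” (log2 fold change -5.38 ± 0.36, adjusted p = 7.51e-06). bHLH69 (MELO3C014408.2) was at 5.95 ± 0.748 CPM and 0.197 ± 0.139 CPM. bZIP34 (MELO3C019312.2) fell from 2.85, 1.41 and 1.28 CPM to the floor by 30 DAP and was at least 13.7-fold lower at 45 than at 10 DAP.

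Other factors were not called as lower by at least 2-fold at 30 DAP, and fell afterwards. WRKY70 (MELO3C009097.2), which in Arabidopsis stands between salicylic acid and jasmonic acid responses, was at 553, 644 and 889 CPM in “1_6”, 520.2, 401 and 386 CPM in “3_6” and 26.4, 26.1 and 35.2 CPM in “4_6” (log2 fold change -4.60 ± 0.26, adjusted p = 3.98e-06). MYBS3 (MELO3C024440.2), named for a rice factor of sugar response, was at 151, 253 and 292 CPM in “1_6”, 224, 127 and 160.1 CPM in “3_6” and 25.7, 23.1 and 21.97 CPM in “4_6” (log2 fold change -3.33 ± 0.25, adjusted p = 1.40e-05). In both the 30 DAP libraries overlapped those of 10 DAP or came near them, and the 45 DAP libraries lay far below. The ethylene-responsive factor 1B gene MELO3C006430.2 was at 10.2, 20.1 and 15.7 CPM in “1_6”, 21.5, 14.6 and 17.99 CPM in “3_6” and 0.652, 0.358 and 0.1297 CPM in “4_6” (log2 fold change -5.36 ± 0.47, adjusted p = 2.91e-05; -5.97 without the first “4_6” library). bHLH71 (MELO3C003421.2), known in Arabidopsis from the stomatal lineage, was at 10.6, 8.49 and 4.89 CPM in “1_6”, 21.9, 21.2 and 18.3 CPM in “3_6” and 0, 0.045 and 0 CPM in “4_6”. It rose before 30 DAP and was then lost, at least 59.4-fold lower at 45 than at 10 DAP. bHLH149 (MELO3C015253.2) and bHLH112 (MELO3C007341.2) also fell only in the later interval (log2 fold changes -3.17 ± 0.34 and -1.65 ± 0.26).

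The other WRKY genes that fell did so in both intervals. The WRKY24 genes MELO3C009127.2 and MELO3C020489.2 went from 64.9 ± 27.6 CPM and 334 ± 135 CPM to 2.34 ± 0.397 CPM and 16.2 ± 9.42 CPM. WRKY51 (MELO3C020963.2) was at 14.8, 32.3 and 48.3 CPM in “1_6”, 12.03, 7.09 and 8.89 CPM in “3_6” and 2.47, 1.75 and 1.38 CPM in “4_6” (log2 fold change -4.12 ± 0.46, adjusted p = 9.93e-05), and WRKY50 (MELO3C030287.2) at 4.11 ± 1.52 CPM and 0.1203 ± 0.071 CPM at the ends. The first “1_6” library was the lowest of its group in all 5 of the WRKY genes that fell, and every “1_6” library was above every “4_6” library. bZIP43 (MELO3C005173.2) and NAC2 (MELO3C010632.2) fell as well (log2 fold changes -3.98 ± 0.30 and -3.32 ± 0.29).

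The 8 factors that rose did so at different times. NAC73 (MELO3C002628.2), which in Arabidopsis takes part in secondary wall formation, was at 7, 8.54 and 7.07 CPM in “1_6”, 47.1, 51.7 and 47.5 CPM in “3_6” and 137, 100.05 and 81.7 CPM in “4_6” (log2 fold change 3.78 ± 0.22, adjusted p = 4.21e-06), rising in both intervals. WRKY75 MELO3C014896.2, a senescence-linked factor in Arabidopsis, was at 0.628, 0.156 and 0.744 CPM in “1_6”, 0.767, 0.667 and 0.449 CPM in “3_6” and 11.3, 7.56 and 8.52 CPM in “4_6” (log2 fold change 4.12 ± 0.44, adjusted p = 7.52e-05), its whole rise lying after 30 DAP. WRKY75 MELO3C008175.2 rose by 1.13 ± 0.25, a call that was lost without the first “1_6” library at 0.99. bHLH162 (MELO3C002608.2) also rose late, from 0.381 ± 0.2403 CPM to 4.25 ± 1.21 CPM. LEP (MELO3C005088.2), an ethylene-responsive factor, was at 0, 0.052 and 0.106 CPM in “1_6”, 10.6, 10.9 and 12.9 CPM in “3_6” and 2.47, 1.03 and 1.86 CPM in “4_6”, the highest level being that at 30 DAP, and was at least 11.6-fold higher at 45 than at 10 DAP. ERF039 (MELO3C013926.2) rose by 2.47 ± 0.55 (3.59 without the first “1_6” library), NAC21/22 (MELO3C010555.2) by 1.53 ± 0.29 and bZIP4 (MELO3C010788.2) by 1.62 ± 0.42, all by 30 DAP. MYB12 (MELO3C034933.2), a flavonol regulator in Arabidopsis, was called down at -1.10 ± 0.27, with its lowest level, 1.02 ± 0.581 CPM, at 30 DAP, and lost the call without the first “1_6” library (-0.97) or the first “4_6” library (-0.91).

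**Figure D4:**
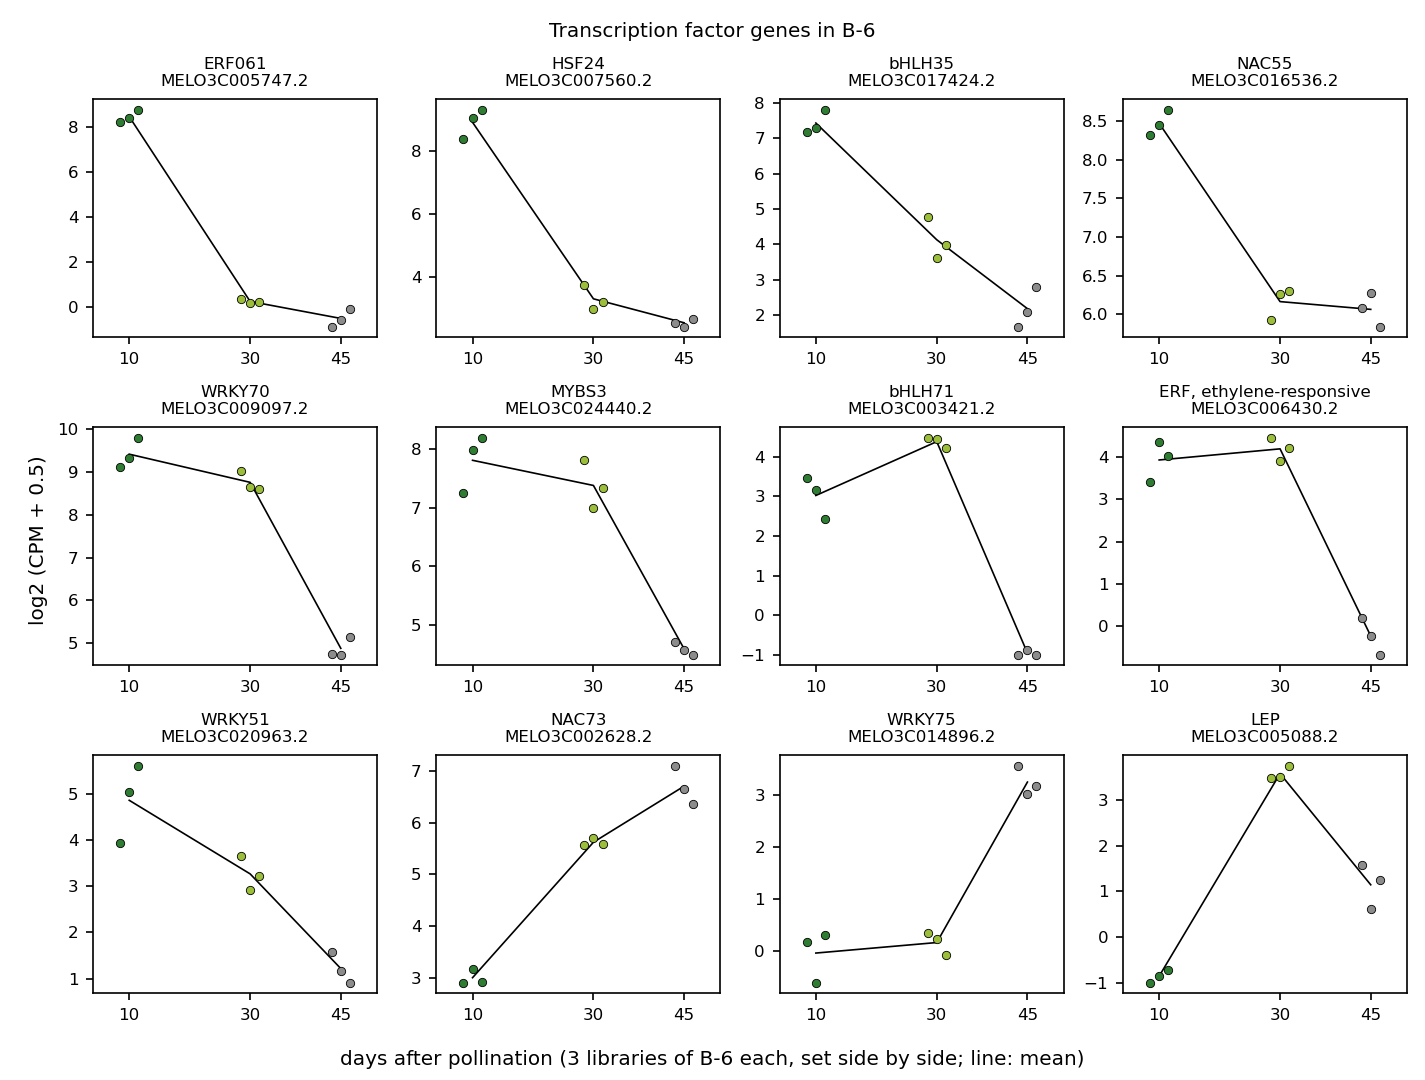
Level of 12 transcription factor genes, as log2 (CPM + 0.5), against days after pollination, with a point for each of the 3 “B-6” libraries of a stage and a line through their means. ERF061, HSF24 and NAC55 are low from 30 DAP on, WRKY70, MYBS3, bHLH71 and the ethylene-responsive factor MELO3C006430.2 drop only at 45 DAP, NAC73 rises through both intervals, WRKY75 rises at 45 DAP and LEP peaks at 30 DAP.

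A last group of 18 genes was the study's ranking of differences between the lines at 45 DAP, which used the “4_6” libraries. In “B-6” over time 6 were upregulated, 6 downregulated and 6 not called, that is 33.3% in each direction, beside 19.6% and 28.2% of all genes. Beta-amyrin synthase (MELO3C002943.2), which makes the triterpene beta-amyrin, was at 0.193, 0.313 and 0.532 CPM in “1_6”, 187, 216 and 243 CPM in “3_6” and 1286, 900.2 and 966 CPM in “4_6” (log2 fold change 11.53 ± 0.40, adjusted p = 1.04e-06). No other named gene measured above the floor at 10 DAP rose as far. Enoyl-CoA delta isomerase 2 (MELO3C006443.2), a peroxisomal enzyme of fatty acid breakdown, was at 6.37, 6.25 and 3.93 CPM in “1_6”, 56.3, 58.04 and 61.1 CPM in “3_6” and 112, 91.5 and 108 CPM in “4_6” (log2 fold change 4.20 ± 0.22, adjusted p = 2.75e-06). Dirigent protein 20 (MELO3C014666.2), of proteins that guide the coupling of phenols, was at 24.4, 11.5 and 16.4 CPM in “1_6”, 8.003, 17.7 and 11.5 CPM in “3_6” and 93.9, 117 and 68.8 CPM in “4_6” (log2 fold change 2.38 ± 0.30, adjusted p = 0.000206), and the receptor-like kinase At3g47110 (MELO3C010825.2) at 1.4, 1.25 and 0.797 CPM in “1_6”, 0.2396, 0.809 and 0.449 CPM in “3_6” and 18.97, 14.46 and 19.3 CPM in “4_6” (log2 fold change 3.89 ± 0.26, adjusted p = 7.89e-06). Both rose after 30 DAP, the kinase from a lower level than at 10 DAP. Somatic embryogenesis receptor kinase 2 (MELO3C035241.2) was at 0 in “1_6” and 3.08, 2.596 and 1.95 CPM in “4_6”, at least 16.5-fold higher. The light-sensor protein kinase (MELO3C005737.2) rose by 1.23 ± 0.31.

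Of those that fell, flavonoid 3′-monooxygenase (MELO3C025797.2) was at 4.34, 6.199 and 8.88 CPM in “1_6”, 5.32, 3.52 and 2.96 CPM in “3_6” and 0.792, 1.07 and 1.21 CPM in “4_6” (log2 fold change -2.67 ± 0.34, adjusted p = 0.000205), pectin acetylesterase 8 (MELO3C016210.2), a wall enzyme, went from 72.4 ± 12.5 CPM to 12.9 ± 1.34 CPM, and an alkaline ceramidase (MELO3C006305.2) from 34.3 ± 1.49 CPM to 8.83 ± 1.28 CPM. Glutamate receptor 3.3 (MELO3C017043.2), a calcium channel of wound signalling in Arabidopsis, fell (log2 fold change -1.23 ± 0.18). The falls of dicer-like protein 4 (MELO3C010254.2), which makes small RNAs, at -1.02 ± 0.13, and of a FAF-like protein (MELO3C015055.2), at -1.02 ± 0.21, lay at the 2-fold limit. The first was lost without the first “1_6” library (-0.97) or the third “4_6” library (-0.94), and the second without the third “1_6” library (-0.82), the first “4_6” library (-0.96) or the third (-0.91). Cyclic nucleotide-gated ion channel 1 (MELO3C014477.2) was lowest at 30 DAP and had no net call, at 23.6, 33.3 and 34.3 CPM in “1_6”, 7.52, 7.38 and 8.302 CPM in “3_6” and 23.2, 16.8 and 28.6 CPM in “4_6”.

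Most of the course was shared with “B-14”. Across 16069 genes tested in both lines the log2 fold changes of 45 against 10 DAP had a Pearson's r of 0.858 and a Spearman's rho of 0.772, a description across genes, which are not independent replicates. There were 5178 genes called in the same direction in both, or 68.7% of the “B-6” DEGs and 72.9% of the “B-14” DEGs among these genes, and 137 called in opposite directions. The interaction of line and stage, which tests whether the change differs between the lines, was called for 4141 of 17250 genes (24.0%), at an adjusted p of at most 0.05 and a difference of at least 2-fold.

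Among the genes of the lists 79 of 154 tested had a called interaction. They were chosen in part for differing between the lines, so this share is a description. By list these were 14 of the 42 chlorophyll genes, 13 of 25 carotenoid genes, 21 of 40 transcription factor genes, 16 of 30 stage genes and 15 of 18 genes ranked between lines, beside 24.0% of all genes. Some of the calls were lost on leaving out a library. In the pigment lists these were CPX, CHLM, RCCR MELO3C020912.2, PSY MELO3C016185.2, CCS, ABA2 and AAO2. In 7 list genes the 2 lines were called in opposite directions, which were RCCR MELO3C020913.2, MYB12, bHLH35, flavonoid 3′-monooxygenase, dirigent protein 20, alkaline ceramidase and dicer-like protein 4.

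Several factors that fell in “B-6” fell less, or rose, in “B-14”. The factors were listed mostly for being higher in “4_14” than in “4_6”, so this direction is a description. WRKY70 was at 239.9, 290.1 and 256 CPM in “1_14” and 126, 237 and 221 CPM in “4_14”, where “B-6” fell to 29.2 ± 5.13 CPM, and the change in “B-6” minus that in “B-14” was -4.10 ± 0.35, adjusted p = 1.63e-05. MYBS3 was at 18.2, 26.6 and 30.1 CPM and 35.7, 28.7 and 85.4 CPM in “B-14” (interaction -4.26 ± 0.54, adjusted p = 0.000163). bHLH35 rose in “B-14”, from 8.83, 4.703 and 6.06 CPM to 14.1, 14.2 and 24.5 CPM (interaction -6.74 ± 0.50, adjusted p = 6.45e-06). HSF24 fell in both lines but further in “B-6” (interaction -5.01 ± 0.39, adjusted p = 7.92e-06), its “B-14” levels being 471 ± 66.6 CPM and 166 ± 49.4 CPM.

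Pigment genes with a called interaction lay in every section of both pathways, and several are given here. PSY MELO3C025102.2 reached 367, 265 and 299 CPM in “4_14” against 239.8, 187 and 153 CPM in “4_6”, the levels at 10 DAP being 5.298 ± 0.663 CPM in “1_14” and 35.1 ± 4.44 CPM in “1_6” (interaction -3.37 ± 0.27, adjusted p = 1.05e-05). NCED2 MELO3C007127.2 rose in both lines, in “B-14” from 0.412, 0.738 and 0.879 CPM to 103, 58.5 and 81.7 CPM, and rose less in “B-6” (interaction -2.92 ± 0.45, adjusted p = 0.000519). CHLP MELO3C017176.2 rose in “B-6” and was at 48.1 ± 25.2 CPM and 59.9 ± 18.7 CPM in “B-14” (interaction 2.05 ± 0.59, adjusted p = 0.0184). HEMC was at 26.1 ± 1.05 CPM and 35.2 ± 6.47 CPM (interaction 1.58 ± 0.24, adjusted p = 0.000534), and RCCR MELO3C020913.2 fell from 92.9 ± 21.6 CPM to 42.1 ± 7.62 CPM where it rose in “B-6” (interaction 2.41 ± 0.32, adjusted p = 0.000208). HEMA2 fell less in “B-14” (interaction -2.75 ± 0.78, adjusted p = 0.0164), and HEMH was at 69.9 ± 20.2 CPM and 68.96 ± 5.25 CPM (interaction -1.28 ± 0.29, adjusted p = 0.005). CYP707A2 was at 93.8, 34.95 and 89.1 CPM and 47.3, 59.6 and 88.4 CPM (interaction -2.76 ± 0.65, adjusted p = 0.00659), with overlapping libraries. CAX3 was at 16.2, 16.1 and 11.7 CPM in “1_14” and 1088, 1243 and 1029.6 CPM in “4_14”, a rise of 6.25 ± 0.21 on the log2 scale, while the net change in “B-6” was not called (interaction -6.41 ± 0.82, adjusted p = 0.00017, and -7.73 without the first “4_6” library).

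**Figure D5:**
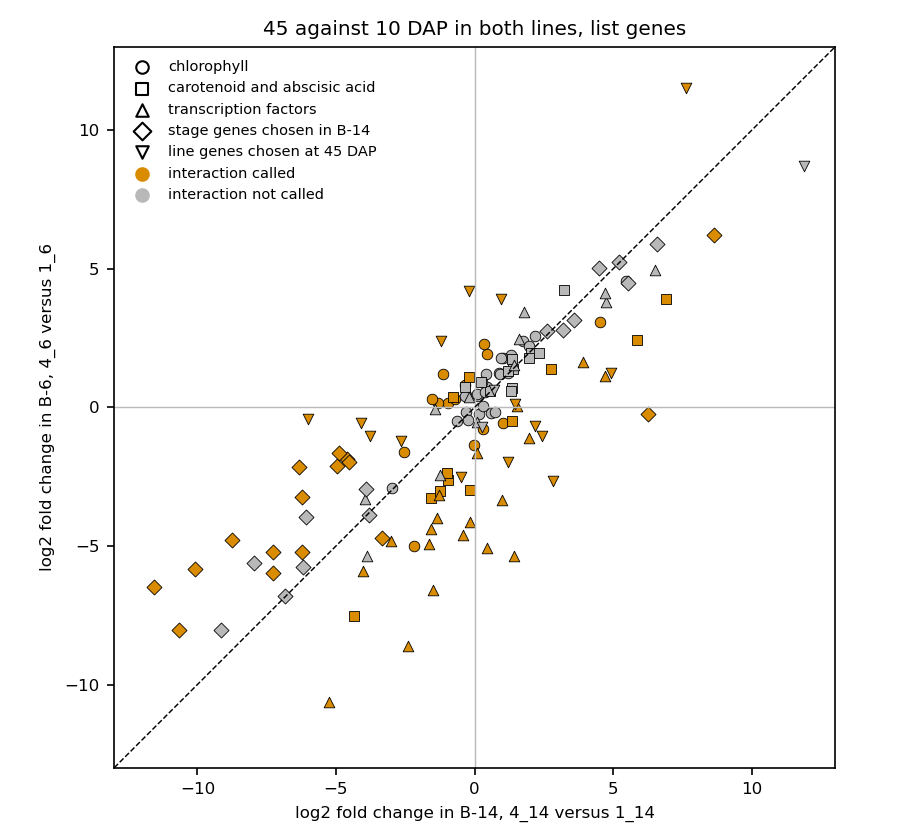
Log2 fold change of 45 against 10 DAP in “B-6” (vertical) against that in “B-14” (horizontal) for 143 list genes tested in both lines and in the interaction, with a marker for each list. The 76 genes in orange had a called interaction, the dashed line marks equal change, and transcription factors (triangles) lie mostly below it, that is, fell further or rose less in “B-6”.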

How the data were processed

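RNA-seq counts of 22394 genes were analysed in the 6 libraries of “4_6” and “1_6”, with “3_6”, “1_14” and “4_14” for timing and comparison. Groups and replicate numbers are those of the labels. The authors trimmed reads with Trimmomatic and aligned them with HISAT2, and the deposited values are whole-number counts per gene without normalization. The counter, its strand setting, the program versions and the genome build are not given in the sources used here, so that near-identical gene copies and overlapping genes may share reads, and whether a count is a read or a pair is unknown.

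Pairs of groups were fitted in R 4.3.3 with edgeR 4.0.16 (TMM factors, filterByExpr, quasi-likelihood F test, Benjamini-Hochberg adjustment over all genes tested), and the interaction of line and stage on 12 libraries. An adjusted p-value took the place of the study's unadjusted one. SE was the log2 fold change divided by the square root of F. Levels are CPM with TMM factors over 18 libraries, and the share reached at 30 DAP used log2 CPM with a prior count of 0.5. Alternatives were DESeq2 1.42.0, RLE factors, library size alone, other filters, other sets of libraries, a test against a 2-fold change, a replicate block and leaving out each library. The fits were tested on simulated data with 200 genes changed 4-fold. The fit of “4_6” versus “1_6” found 191 of them with 8 false calls, the interaction fit 155 with 6.

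The 155 genes of the 5 lists come from the study's text and tables, and members and lists were chosen with earlier results of these data known. From each list a part of the DEGs was named, in some subgroups all of them. Beside these stand members whose interaction was called (values given for those of at least 8-fold and some of the pigment pathways). Only some of the uncalled members are given as values. Beyond the lists, the 2 genes per direction with the smallest p-value whose libraries did not overlap were named. None of the identifiers matched the 28628 genes of the RefSeq table (0 matched), so no positions, sequences or further names are given. The counts support only statements on RNA between these plants.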

Additional observations from a re-analysis of the deposited data

Results flagged for a closer look

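The change from 10 to 45 DAP differed between the lines, by the interaction test on 12 libraries, for the following named genes. Each value is the log2 fold change in “B-6” minus that in “B-14”. Genes whose libraries are all at the floor in some group are left out, since their fitted value depends on the prior count, and the explanation of a difference was not tested.

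Many of the transcription factors changed further downward in “B-6”. The study listed them mostly for being higher in “4_14” than in “4_6”. Those libraries also enter this difference, so its sign is no independent result. The difference was -6.74 ± 0.50 for bHLH35, -5.44 ± 0.79 for WRKY50, -5.29 ± 0.69 for ERF061, -5.01 ± 0.39 for HSF24, -4.26 ± 0.54 for MYBS3, -4.10 ± 0.35 for WRKY70, -3.89 ± 0.54 for WRKY51, -3.52 ± 0.26 for WRKY75 (MELO3C008175.2), -3.22 ± 0.53 for bHLH69 and -2.99 ± 0.49 for MYB12. Without the third “4_6” library ERF061 was at -6.28 and without the first “4_14” library at -4.58. MYBS3 was at -3.63 without the third “4_14” library, and WRKY50 at -6.10 without the second “1_14” library.

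In the pigment pathways the difference was -3.37 ± 0.27 for PSY (MELO3C025102.2), -5.30 ± 0.73 for NCED2 (MELO3C002744.2), -2.92 ± 0.45 for NCED2 (MELO3C007127.2), -3.10 ± 0.58 for CYP711A1, -2.76 ± 0.65 for CYP707A2, -2.75 ± 0.78 for HEMA2 and -1.28 ± 0.29 for HEMH. NCED2 MELO3C002744.2 lay at or below 0.346 CPM in every “1_14” and “4_14” library, where its change was too low in counts to be tested, so that its difference rests on the fall in “B-6”. The difference was positive for RCCR (MELO3C020913.2) at 2.41 ± 0.32, CHLP (MELO3C017176.2) at 2.05 ± 0.59 and HEMC at 1.58 ± 0.24. CYP711A1 was at -2.29 without the second “4_14” library, and HEMA2 at -3.53 without the third “4_6” and -1.75 without the third “4_14” library.

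Among the genes that the study ranked by stage in “B-14”, CAX3 stood at -6.41 ± 0.82 and was at -7.73 without the first “4_6” library. The others, in a list that holds the most changed genes of “B-14”, fell less in “B-6”. The differences were 5.16 ± 0.88 for the methyltransferase CRG1, 4.32 ± 1.04 for stearoyl-[acyl-carrier-protein] 9-desaturase 6, 4.26 ± 0.72 for ribonuclease 1, 4.02 ± 0.50 for lysine histidine transporter LHT1, 3.3 ± 0.22 for a mitochondrial AAA-ATPase (MELO3C021479.2) and 3.09 ± 0.16 for enoyl-CoA delta isomerase 1 (MELO3C025448.2). Leaving out the second “4_6” library gave 4.22 for CRG1 and 3.66 for the desaturase, which reached 6.59 without the first “4_14” library, and leaving out the third “4_6” library gave 3.53 for ribonuclease 1.

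Among the genes ranked between the lines at 45 DAP, which share the “4_6” libraries, positive differences were 5.63 ± 1.39 for cyclic nucleotide-gated ion channel 1, 4.46 ± 0.25 for enoyl-CoA delta isomerase 2, 3.96 ± 0.64 for beta-amyrin synthase, 3.65 ± 0.55 for dirigent protein 20, 3.59 ± 0.43 for acid phosphatase 1 (MELO3C005493.2) and 3.00 ± 0.43 for the receptor-like kinase MELO3C010825.2. The channel was at 3.21 without the second “1_14” library and beta-amyrin synthase at 2.99 without the first “1_14” library. Negative differences were -5.42 ± 0.47 for flavonoid 3′-monooxygenase, -3.62 ± 0.41 for the light-sensor protein kinase, -3.37 ± 0.20 for dicer-like protein 4 and -3.13 ± 0.20 for alkaline ceramidase. The adjusted p of the named interactions lay between 2.15e-06 and 0.0184.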

How the results depend on the processing

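The DEGs in “4_6” versus “1_6”, 7901 in the fit reported, numbered 5531 to 8808 over the alternatives. They were 7957 with an unadjusted p-value, 7845 with DESeq2, 6149 with a test against a 2-fold change, 8808 with every gene of at least 1 count, 5531 with at least 10 counts in every library, a filter that removes genes lost by 45 DAP, and 8215 with library size alone, which moved the median of all genes by 0.18 on the log2 scale. Leaving out each library in turn gave 7829 to 8158. In those fits the called genes numbered 20 to 21 for chlorophyll, 17 to 19 for carotenoids and 27 to 30 for transcription factors. They numbered 29 to 30 for the stage genes and 10 to 12 for the genes ranked between lines. Under the test against a 2-fold change these numbers were lower, at 15, 17, 25, 28 and 8 in the same order. With every gene of at least 1 count, 33 transcription factors were called. Leaving out each library also gave 7034 to 7255 DEGs in “3_6” versus “1_6” and 3970 to 4716 in “4_6” versus “3_6”. The interaction was then called for 3661 to 4389 genes. Beyond these ranges, “3_6” versus “1_6” had 6982 DEGs with the replicate block and 7314 with library size alone. The interaction had 3372 calls with the 10-count filter and 4453 with DESeq2. With at least 10 counts in every library 17 transcription factors were called in place of 28, since fewer were tested. The median share reached at 30 DAP was 69.1% for upregulated genes with library size alone, and for downregulated genes 71.3% under that stricter filter and 73.4% from the first 30 DAP library alone. Under the same filter it was 65.2% for upregulated genes. Leaving out each “1_6” or “4_6” library in turn, an alternative chosen after seeing the data, gave 63.2 to 66.0% and 77.1 to 78.5%.

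Among named genes, uncalled net changes turned sign for PAO MELO3C004867.2 (0.025 with library size alone), CHLD (-0.023 without the first “4_6” library, and up to 0.43 without others) and CAX3 (0.12 and 0.19 without the second and the third, and -1.54 without the first). The test against a 2-fold change ended 14 calls of named genes. In the pigment lists these were POX1, PORA MELO3C013592.2, NOL, CLH2, RCCR MELO3C020913.2 and PSY MELO3C016185.2. Of the breakdown genes that rose, NYC1 and HCAR kept their calls. The others ended were MYB12, bZIP4, WRKY75 MELO3C008175.2, ribonuclease 1, the light-sensor protein kinase, dicer-like protein 4, glutamate receptor 3.3 and the FAF-like protein. Library size alone ended the calls of MYB12, dicer-like protein 4 and the FAF-like protein and added NCED6. The call of MYB12 was also ended with 18 libraries in 1 fit.

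Same-numbered libraries of “1_6” and “4_6” did not deviate together in every pair (r of -0.024, -0.018 and 0.13 across genes), so the numbers were not taken to pair them. With the replicate number as a block 7870 genes were DEGs in “4_6” versus “1_6”, and no named call was lost. With 3 libraries a group, genes near the floor have wide errors.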

Other observations

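Further genes of the list ranked by stage in “B-14” moved in “B-6” as follows. Heavy metal-associated isoprenylated plant protein 7 (MELO3C008010.2) rose from 74.8 ± 14.04 CPM over 397 ± 26.2 CPM to 529.8 ± 101 CPM (log2 fold change 2.79 ± 0.22, adjusted p = 1.70e-05), and SFR2 (MELO3C021253.2), which in Arabidopsis remodels the lipids of the chloroplast envelope under freezing, from 16.1 ± 1.52 CPM over 103 ± 5.27 CPM to 146 ± 27.8 CPM (log2 fold change 3.15 ± 0.18, adjusted p = 3.98e-06). The homologue of cell division cycle protein 48 (MELO3C026279.2), an unfolding ATPase, was at 28.05, 44.4 and 40.1 CPM in “1_6”, 414, 455 and 444 CPM in “3_6” and 349.9, 225 and 202 CPM in “4_6”, above the 10 DAP level in every later library. Cysteine-rich receptor-like protein kinase 2 (MELO3C010681.2) fell from 282 ± 45.03 CPM over 31.2 ± 1.75 CPM to 19.7 ± 2.12 CPM (log2 fold change -3.87 ± 0.18, adjusted p = 1.97e-06).

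The first 45 DAP library of “B-6” lay nearer to 30 DAP in a larger, though still small, share of genes than its replicates did. In other genes, among them CCD4, CHLH and CRD1, it was the 45 DAP library furthest from 30 DAP. Of the 4224 DEGs in “4_6” versus “3_6”, 374 (8.85%) were nearer to the 30 DAP mean than to the mean of the other 45 DAP libraries in that library, against 92 (2.18%) in the second and 92 (2.18%) in the third. These libraries took part in choosing the genes, so the shares describe the libraries only.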
